A study of Homo sapiens with 6 samples.

Results

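The S100 genes encode small calcium-binding proteins. In MCF10A cells, an established, non-tumorigenic line of human breast epithelial cells, 10 of them were examined: S100A2, S100A4, S100A6, S100A7, S100A8, S100A9, S100A10, S100A11, S100A14 and S100P. They were taken by exact symbol from the 26822 gene symbols in the deposited RNA-seq table, and each of the 10 had 1 row that held no other symbol. The compared groups were cells given non-targeting siRNAs (siNT) and cells given siRNAs against PAX9, a paired box transcription factor (siPAX9). Both groups received 30 nM of siRNA for 72 hours, and each had 3 samples. The authors combined the samples of a group into 1 FPKM per row (fragments scaled for the length of the transcript and for the mapped reads of the library). The comparison therefore asks how far the S100 mRNA levels of the groups differed, with no error between replicates and no test. Every value below is the authors' value for a group, and the table holds no counts, so the number of reads behind each value is unknown.

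PAX9 itself was at 2.80 FPKM in siNT and 0.325 FPKM in siPAX9, a log2 ratio of -3.10, which is the direction the labels give. Its row reaches well past the gene on chromosome 14 and overlaps a neighbor. All 12 breast epithelial markers reached 1 FPKM, and the most abundant were KRT17 (1718 and 2088 FPKM in siNT and siPAX9) and KRT5 (1558 and 1807 FPKM). Of the 12, 9 were within 2-fold, KRT6A (368 and 959 FPKM) and CDH1 (45.3 and 124 FPKM) were higher in siPAX9, and EPCAM (34.3 and 16.7 FPKM) was lower. The summed level of 4 endothelial markers was 3.38 FPKM in siNT and 2.46 in siPAX9, with PECAM1 at 2.58 and 0.495 FPKM and KDR at 0.798 and 1.94 FPKM. That of 5 melanocyte markers was 3.36 and 4.32. Of 12 common reference genes, 11 were within 2-fold, with log2 ratios on both sides of a median of -0.10, and HPRT1 was lower in siPAX9, at 33.2 and 10.6 FPKM. GAPDH, PPIA and RPLP0 had log2 ratios of -0.76 each. Beside these lists, 15.0% of all named genes at 1 FPKM or more in the higher group were past 2-fold. In RNA from whole cultures, fewer cells that express a gene and less RNA per cell cannot be told apart.

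S100 proteins carry a pair of EF-hand calcium-binding loops and usually work as dimers. On binding calcium most of them open a surface that takes up a partner, such as an annexin or a cytoskeletal protein. Several are also secreted by stressed or differentiating epithelium, where they bind metal ions, restrain microbes and attract leukocytes. Most of the genes lie on the long arm of chromosome 1, at both ends of the epidermal differentiation complex, which also holds the genes for involucrin and the small proline-rich proteins.

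S100A7 and S100P stood at least 2-fold higher in siPAX9, and the other 8 members differed by less than 2-fold. Among the 13622 named genes whose larger group value reached 1 FPKM, 7.75% were at least 2-fold higher in siPAX9, 7.22% were at least 2-fold lower and 15.0% were past either limit. All 10 members were among those genes. Their 2 of 10, both in the higher direction, lay near the share for either limit, so the count at 2-fold sets nothing apart about the S100 genes as a group. The members had a median log2 ratio of siPAX9 to siNT of 0.28, with 7 above and 3 below 0, beside -0.07 over the 13622 genes.

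The bases just upstream of the start are shown for S100P and S100A7, the members past 2-fold, and for S100A7A, the near copy of S100A7 that lies close to it. They are the 120 bases before the transcription start, from RefSeq on GRCh38.p14, written in the direction of transcription. The capitals mark the TATA box motif. The regions are chr1:153460652-153460771 on the minus strand for S100A7, chr1:153416400-153416519 on the plus strand for S100A7A and chr4:6693758-6693877 on the plus strand for S100P.
S100A7: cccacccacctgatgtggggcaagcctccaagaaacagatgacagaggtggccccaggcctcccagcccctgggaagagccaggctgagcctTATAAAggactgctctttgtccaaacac
S100A7A: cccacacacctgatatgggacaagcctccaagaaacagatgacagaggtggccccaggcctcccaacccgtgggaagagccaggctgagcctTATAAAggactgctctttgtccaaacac
S100P: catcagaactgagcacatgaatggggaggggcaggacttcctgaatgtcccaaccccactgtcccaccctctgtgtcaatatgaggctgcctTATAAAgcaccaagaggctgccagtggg
In each of the 3 genes the TATAAA began 28 bases before the start. Over the whole RefSeq window, from 250 bases before the start to 50 after it, S100A7 and S100A7A were identical at 289 of 300 positions (96.3%).

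The level of S100P was 11.9 FPKM in siNT and 168 FPKM in siPAX9. Its ratio was 14.1-fold, the largest among the members, and its log2 ratio of 3.82 lay above those of 98.6% of the 13622 genes. S100P is a secreted and cytoplasmic family member first found in placenta, and in the siNT cells it had the lowest level of the 10. By level it went from place 6285 among all symbols in siNT to place 363 in siPAX9. The gene lies apart from the other members, on chromosome 4, in a row from 6695566 to 6698897 on UCSC hg19. Over both groups the single-symbol genes nearest to it in log2 FPKM were KRT16, AKR1C2 and KRT10, at distances of 0.11, 0.57 and 0.83, a likeness that rests on 2 values per gene.

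S100A7, also called psoriasin, is an antimicrobial protein of stratified epithelium. Its level was 168 FPKM in siNT and 1666 FPKM in siPAX9. The ratio was 9.89-fold and the log2 ratio 3.31. No other of the 13622 named genes combined so high a level in siPAX9 with so large a log2 ratio, while 221 genes had a larger ratio at a lower level. Among all symbols S100A7 went from place 434 to place 21, and among the 10 members from place 8 to place 4, past S100A2, S100A11, S100A14 and S100A10. Its row lies on chromosome 1 from 153430220 to 153433137. Its share of the summed FPKM of the 10 members was 0.853% in siNT and 7.01% in siPAX9.

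S100A7A, which is not a member but shares 96.0% of the aligned coding bases of S100A7, was at 0.403 FPKM in siNT and 31.3 FPKM in siPAX9. Reads from the pair can be split between them. Of the 411 stretches of 76 bases in the S100A7 transcripts of the GENCODE annotation, 15 (3.65%) also occur in S100A7A. With S100A7 and S100A7A summed, the levels were 169 and 1697 FPKM, a ratio of 10.1.

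The 10 members differed more in level than in ratio. From the highest to the lowest, the siNT order was S100A9, S100A8, S100A6, S100A2, S100A11, S100A14, S100A10, S100A7, S100A4 and S100P. In siPAX9 the first 3 and the last 2 places were held by the same genes, and S100A7 stood between S100A6 and S100A2. The highest level was 654 times the lowest in siNT and 51.1 times the lowest in siPAX9. Whether neighbors in these orders differ beyond their spread was not judged, since the table holds no values per sample.

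**Figure D1:**
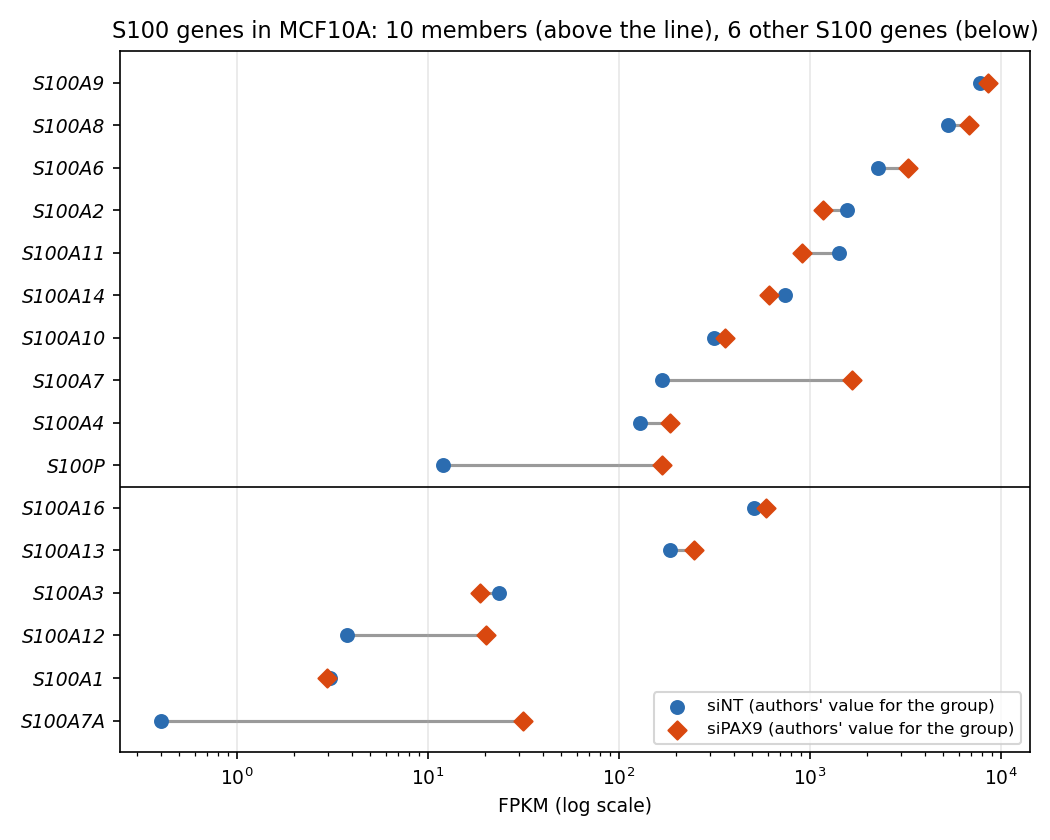
FPKM (log scale) of the 10 members and of the 6 other S100 genes with at least 1 FPKM in the higher group, with circles for siNT and diamonds for siPAX9. Each point is the authors' single value for a group, so there are no error bars. The long connecting lines are those of S100A7 (168 to 1666), S100P (11.9 to 168), S100A12 (3.78 to 20.1) and S100A7A (0.403 to 31.3).

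S100A8 and S100A9 are the subunits of calprotectin, which binds zinc and manganese and is abundant in neutrophils and in activated epithelium. S100A9 was at 7814 FPKM in siNT and 8605 FPKM in siPAX9, place 5 and place 3 among all symbols. S100A8 was at 5311 FPKM in siNT and 6830 FPKM in siPAX9, place 7 and place 5. Together these subunits made up 66.5% of the members' summed FPKM in siNT and 65.0% in siPAX9. The log2 ratios were 0.14 for S100A9 and 0.36 for S100A8, so neither reached 2-fold, and the level of S100A9 over that of S100A8 was 1.47 in siNT and 1.26 in siPAX9. The row of S100A8 (chromosome 1, 153362508 to 153395701) is listed with the same span as that of S100A7A, although GENCODE ends S100A8 itself at 153363549.

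Because calprotectin also marks myeloid cells, a list of 10 myeloid markers was read beside these values. PTPRC (CD45) was at 0.0166 and 0.0922 FPKM, LYZ at 0.0206 and 0.0472, and MPO at 0.00739 and 0.00644, in siNT and siPAX9 respectively. FCGR3B and CD163 were listed at 0 in both groups, and 8 of the 10 stayed under 1 FPKM. The other two were CD68, at 3.38 FPKM in siNT and 3.77 FPKM in siPAX9, and CD14, at 14.4 and 56.5 FPKM, the one past 2-fold. The summed level of the list was 18.2 and 61.2 FPKM, and its part in the S100 values was not tested.

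S100A10 and S100A11 are known for binding annexins, and S100A10 does so without needing calcium. S100A10, which holds ANXA2 at the plasma membrane, was at 314 FPKM in siNT and 361 FPKM in siPAX9, a log2 ratio of 0.20. S100A11, a partner of ANXA1, was at 1413 FPKM in siNT and 909 FPKM in siPAX9. Its log2 ratio of -0.64 was the lowest of the 10, and its level was 1.55-fold higher in siNT. The single-symbol genes nearest to it over both groups included the ribosomal protein genes RPS18 and RPS25, at log2 distances of 0.08 and 0.12.

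S100A11 has a processed pseudogene on chromosome 7, and a row without a symbol (5600458 to 5600704) overlaps it. The genome there matched the S100A11 transcript over 507 aligned bases at 90.5% identity, and the row was listed at 1080 FPKM in siNT and 816 FPKM in siPAX9. That is a log2 ratio of -0.40, and with this row added to S100A11 the log2 ratio was -0.53. None of the 573 stretches of 76 bases in the S100A11 transcripts occurs in a transcript of another gene in GENCODE, and whether reads with mismatches were placed in both was not tested. Matches inside or close to a member's own row were set aside and not examined. Beyond these, no other match of at least 100 bases and 90% identity was found, apart from that of S100A7 in S100A7A.

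Among the annexins, none at 1 FPKM or more was at least 2-fold higher in siPAX9, beside 7.75% of all named genes at that minimum. ANXA1 was at 117 FPKM in siNT and 218 FPKM in siPAX9, a log2 ratio of 0.90, so that the level of S100A11 over that of ANXA1 was 12.1 in siNT and 4.17 in siPAX9. ANXA2 was at 268 and 377 FPKM, and the level of S100A10 over that of ANXA2 was 1.17 and 0.959. Of the 13 annexins in the table, 11 reached 1 FPKM, and their median log2 ratio was 0.43, beside -0.07 over all genes. ANXA6, at 1.40 and 0.432 FPKM, was the only one of the 11 past 2-fold, and it was lower in siPAX9. The share at least 2-fold lower over all genes was 7.22%, so these counts set nothing apart about the annexins. ANXA5 was at 80.1 and 48.2 FPKM.

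**Figure D2:**
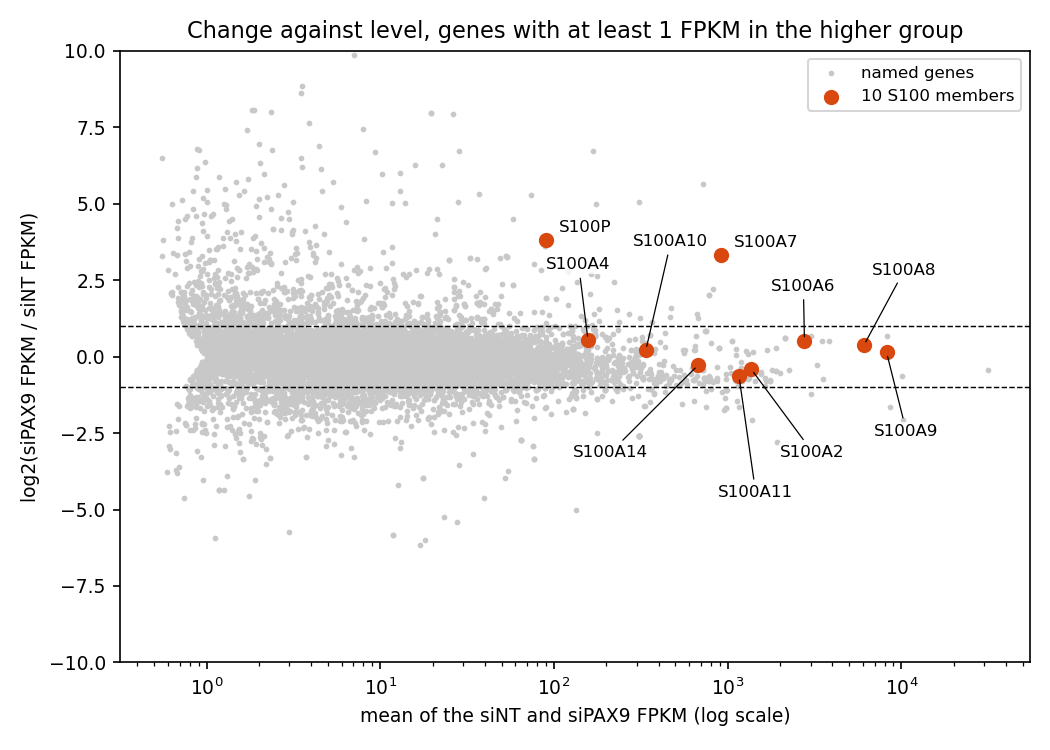
The log2 ratio of siPAX9 to siNT FPKM against the mean FPKM of both groups (log scale) for named genes with at least 1 FPKM in the higher group (grey) and for the 10 members (orange). Dashed lines mark 2-fold. S100P and S100A7 lie above the upper line and the other 8 members lie between the lines, and 134 of the 13622 genes are not drawn because a group was at 0 or the ratio was past the axis.

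By position, 9 of the members lie on chromosome 1 in hg19. S100A10 (151955386 to 151966714) and S100A11 (152004982 to 152009511) lie at one end. S100A9 (153330330 to 153333503) begins the other group, followed by S100A8 and S100A7, then S100A6 (153507076 to 153508717), S100A4 (153516095 to 153532447), S100A2 (153533585 to 153538306) and S100A14 (153586686 to 153588838). These are the spans of the rows, and that of S100A4 reaches past the gene, which GENCODE ends at 153522612. GENCODE gives S100P 2 exons, S100A14 4 exons and each of the others 3. S100A9 and S100P are on the plus strand and the other 8 on the minus strand.

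S100A2, S100A4, S100A6 and S100A14 act mainly inside the cell. S100A6, or calcyclin, was at 2279 FPKM in siNT and 3253 FPKM in siPAX9, place 17 and place 11 among all symbols. S100A4, which binds nonmuscle myosin, was at 128 FPKM in siNT and 186 FPKM in siPAX9. Their log2 ratios were similar in size, 0.51 for S100A6 and 0.53 for S100A4.

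S100A2, a nuclear protein of basal epithelial cells, was at 1555 FPKM in siNT and 1172 FPKM in siPAX9, a log2 ratio of -0.41. S100A14 was at 741 FPKM in siNT and 610 FPKM in siPAX9, a log2 ratio of -0.28. The closest pair in coding sequence among the 10 was S100A2 and S100A4, with 69.3% of aligned bases identical, and their ratios had opposite signs. With no values per sample in the table, none of the 8 differences under 2-fold was set against a spread between samples here.

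Their level also matters for the background, since 9 of the 10 members had a mean of at least 100 FPKM. The 711 named genes that abundant had a median log2 ratio of -0.34, with 5.06% at least 2-fold higher and 11.1% at least 2-fold lower in siPAX9. Of the members in that range, S100A7 was past 2-fold and it was higher. The summed FPKM of the 10 members was 19735 in siNT and 23760 in siPAX9, a ratio of 1.20. The sum was 4025 FPKM larger in siPAX9, while S100A7 alone was 1498 FPKM larger and the sum of S100A8 and S100A9 was 2309 FPKM larger.

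Of 11 further S100 genes, 6 reached 1 FPKM. S100A12, a calprotectin-like gene beside S100A9, was at 3.78 FPKM in siNT and 20.1 FPKM in siPAX9, a ratio of 5.30. With S100A7A, which was under 1 FPKM in siNT, it made up the pair past 2-fold on this list, and both were higher in siPAX9. Over all named genes at 1 FPKM or more, 7.75% were at least 2-fold higher and 7.22% at least 2-fold lower. S100A16 (507 and 592 FPKM), S100A13 (186 and 248), S100A3 (23.6 and 18.7) and S100A1 (3.08 and 2.97) stayed within 2-fold. S100A5, S100G and S100B were under 1 FPKM in both groups, and S100A7L2 and S100Z were listed at 0. The rows of S100A13 and S100A1 share a span, and so do those of S100A3 and S100A4, so reads in the overlaps may have been divided between them.

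The S100 rows of chromosome 1 lie between 151955386 and 153618819, a span of 1663 kb. From S100A9 to S100A7 the table holds 6 S100 rows, 5 of them at 1 FPKM or more, and S100A12, S100A7A and S100A7 were past 2-fold while S100A9 and S100A8 were not. Of the 8 such S100 rows from S100A6 to S100A1, none was past 2-fold in either direction, and their median log2 ratio was 0.08. Between the S100 genes at either end of the span, the table holds 7 rows of small proline-rich (SPRR) genes at 1 FPKM or more. SPRR1A, SPRR1B, SPRR2A, SPRR2B, SPRR2D and SPRR2E had log2 ratios from 6.27 to 7.95, and SPRR3 was listed at 0 in siNT and at 9.17 FPKM in siPAX9. SPRR1B, the most abundant of them, was at 3.18 FPKM in siNT and 334 FPKM in siPAX9, and IVL (involucrin) was at 0.0910 and 15.8 FPKM. The peptidoglycan recognition genes PGLYRP3 (0.0140 and 3.73 FPKM) and PGLYRP4 (0.284 and 5.07 FPKM), next to S100A9, were also past 2-fold, as were LCE1B (1.25 and 3.03), CRCT1 (0.0455 and 1.98) and FLG-AS1 (0.478 and 3.41). LCE1C (3.90 and 3.87), LCE1E (0.910 and 1.28), LOC101928034 (log2 ratio 0.44) and CHTOP (log2 ratio -0.58) stayed within 2-fold. In all, 33 of the 69 named rows of the span reached 1 FPKM, with 17 at least 2-fold higher, SPRR3 among them, 0 at least 2-fold lower and 16 within 2-fold, beside the 7.75% and 7.22% over all named genes. Of the genes named here as past 2-fold, S100A7, S100A12, SPRR1B and LCE1B were at 1 FPKM or more in both groups. The others were under 1 FPKM in siNT, so they reached that minimum through siPAX9 alone and had to be higher there, and the tally gives no measure of the region.

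**Figure D3:**
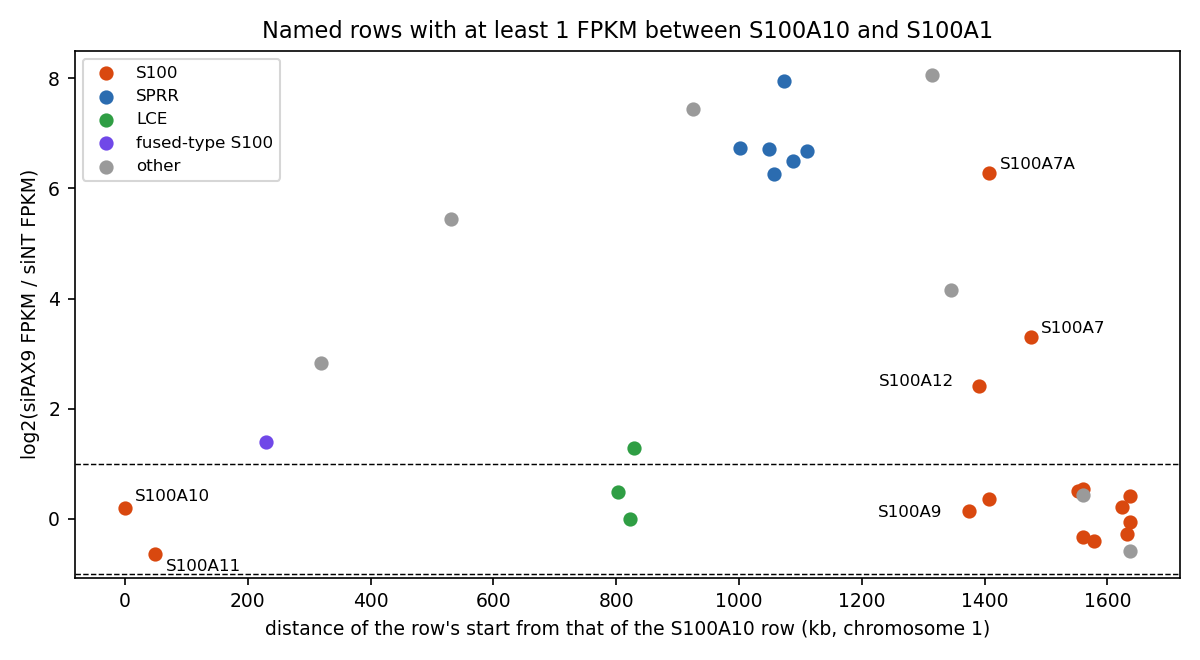
The log2 ratio of siPAX9 to siNT FPKM for named rows with at least 1 FPKM in the higher group, against the distance (kb) of each row's start from that of S100A10 on chromosome 1. Points are single rows, colored by gene family, and dashed lines mark 2-fold. S100A12, S100A7A and S100A7 lie above 2-fold and the other 12 S100 rows lie within it, and SPRR3 is not drawn because it was at 0 in siNT.

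The fused-type S100 genes of the same region, which encode large proteins of the skin barrier with an S100 start, were low. Of 7, only HRNR (hornerin) reached 1 FPKM, at 0.756 in siNT and 1.99 in siPAX9, and RPTN was listed at 0 in both groups. HRNR was past 2-fold and reached 1 FPKM in siPAX9 alone. Filaggrin (FLG), the best known of them, was under 1 FPKM in both groups.

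All 11 described S100 partners examined were within 2-fold, 6 above and 5 below a log2 ratio of 0, with a median of 0.10. Over all named genes at 1 FPKM or more, only 15.0% were past 2-fold, so the count sets nothing apart about the partners. AHNAK, a giant scaffold that joins S100A10 and ANXA2, came closest to the limit, at 82.9 FPKM in siNT and 164 FPKM in siPAX9, a ratio of 1.98. EZR (ezrin), which S100P activates, was at 49.0 and 78.0 FPKM. MYH9, the myosin that S100A4 binds, was at 79.8 and 85.8 FPKM, and COPS5, which S100A7 binds, was at 35.2 and 32.9 FPKM. The remaining partners, CACYBP, SUGT1, IQGAP1, TP63 and ANXA11, had log2 ratios from -0.56 to 0.43.

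Receptors that take up extracellular S100 proteins differed among themselves. TLR4, a receptor of S100A8 and S100A9, was under 1 FPKM in both groups (0.181 and 0.0272). AGER, the receptor RAGE, had 7 rows, and only the one with the highest mean was examined. That row was shared with PBX2 at 20.3 and 18.3 FPKM, so the level of AGER itself cannot be read from it. BSG (basigin), the most abundant, was at 311 FPKM in siNT and 166 FPKM in siPAX9, a log2 ratio of -0.90. CD36 was at 0.237 and 3.48 FPKM, past 2-fold, and it reached 1 FPKM in siPAX9 alone. NPTN was at 63.2 and 54.1 FPKM and ALCAM at 28.1 and 45.5 FPKM.

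**Figure D4:**
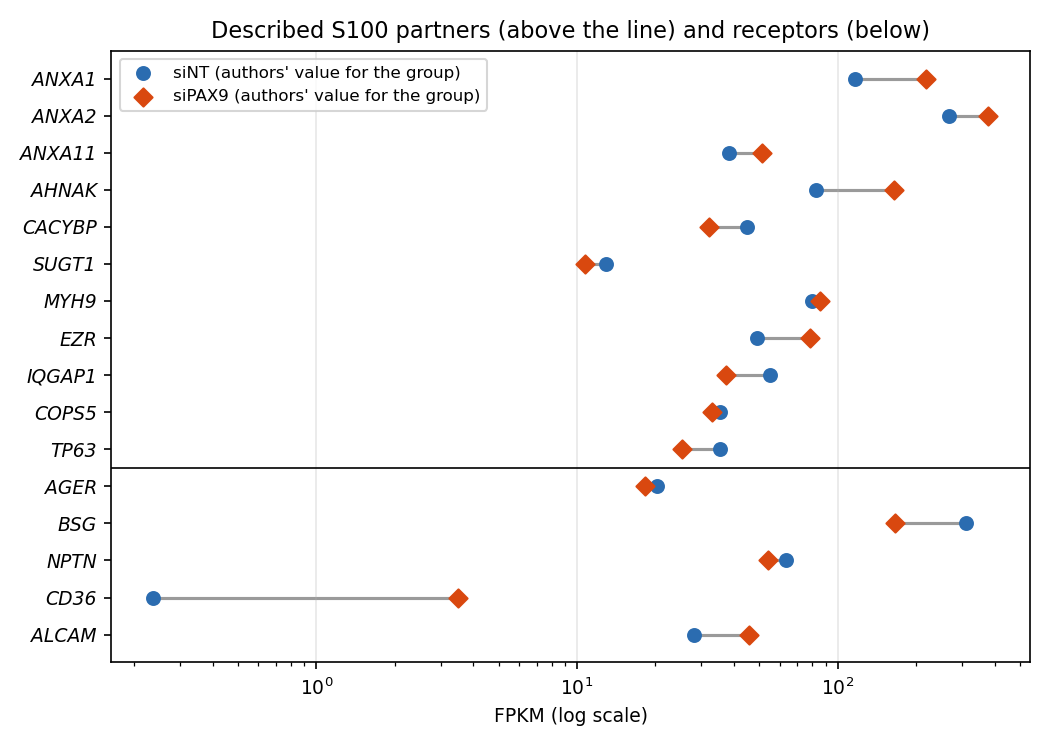
FPKM (log scale) of 11 described S100 partners and of the 5 receptor genes with at least 1 FPKM in the higher group, with circles for siNT and diamonds for siPAX9, each the authors' single value for a group. AHNAK (82.9 to 164) has the longest line among the partners and CD36 (0.237 to 3.48) among the receptors; AGER shares its row with PBX2.

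Of 17 other EF-hand calcium sensors, 12 reached 1 FPKM, with 3 at least 2-fold higher, 0 at least 2-fold lower and 9 within 2-fold, beside 7.75% higher and 7.22% lower over all genes. The abundant ones, CALM2 (247 and 242 FPKM), CALM3 (120 and 99.5) and CAPNS1 (106 and 112), had log2 ratios between -0.27 and 0.09. Past 2-fold were 3 calmodulin-like genes, all higher in siPAX9. CALML3 was at 3.11 and 7.83 FPKM, while CALML5 (0.0202 and 3.42) and CALML6 (0.310 and 1.75) reached 1 FPKM in siPAX9 alone.

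Motifs in the RefSeq windows described the members' promoters further. TATAAA read in the direction of transcription occurred, in at least 1 window of the gene, for 5 of the 10 members (S100A4, S100A7, S100A8, S100A9 and S100P). The share was 8.99% of the 27305 genes with a window. Of these 5, S100A7 and S100P were past 2-fold and S100A4, S100A8 and S100A9 were not. The AP-1 motif TGANTCA, on either strand, was found for S100A2 among the members and for 9.37% of all genes. The C/EBP motif TTGCNNAA was found for S100A11 and for 12.7% of all genes. A match describes these letters in this window and nothing more.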

How the data were processed

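RNA of 6 MCF10A samples, 3 per group, was sequenced as poly(A)+ single-end libraries. Per the labels and the paper's methods, alignment used Bowtie 2 (UCSC hg19), and Cufflinks gave the levels, within Partek Flow. The deposited FPKM is 1 value per group and row; how libraries were scaled is not given in the sources used here. The authors' own fold changes, test statistics, p-values and q-values stand in the same table and were not used.

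The 10 members, the gene lists and the motifs were chosen with earlier results of these data known. All members are named, with list genes chosen by level or by passing 2-fold and the nearest genes in log2 FPKM of the members with the highest and lowest ratio; cell type markers and genes under 1 FPKM were named after their values were seen. Ratios were computed from FPKM with nothing added, each symbol taking its row with the highest mean, and 2-fold was the limit, among symbols with at least 1 FPKM in the higher group. Row starts were assumed to count from 0 in the table and are printed counted from 1. With 1 added, 4 of the 10 member starts equaled the GENCODE start, against 2 without, so the assumption is not certain. The calculation was tested on simulated data. GENCODE release 44 on GRCh37, which shares hg19 coordinates, gave gene positions, coding sequences and transcripts. RefSeq windows on GRCh38.p14 matched 10 of 10 members. Genome copies were sought with blastn 2.17.0 (word size 28, at least 90% identity). Python 3.11.15, pandas 2.3.3, Biopython 1.88 and matplotlib 3.10.9 were used. Alternatives were pseudocounts of 1 and 0.1, centering, other minimum FPKM, other row choices, other fold limits, and summing of near copies. A further partner and a further nearest gene that the fixed rule names were left out and are not reported here.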

Additional observations from a re-analysis of the deposited data

How the results depend on the processing

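The count of members past 2-fold was 2 with 1 or 0.1 added to each FPKM, after centering, with no minimum, with a minimum of 5 FPKM, with the rows of a symbol summed, with rows of 1 symbol only, with rows that had enough reads by the authors' status column, and at a limit of 4-fold. At 1.5-fold it was 3, with S100A11 added. The members' median log2 ratio was 0.28 in the settings that computed it, except for 0.36 after centering on -0.08. Of 70 single values under these settings, 0 had another sign, and the largest move was 0.11 on the log2 scale, for S100P with 1 added. Summing S100A7 with S100A7A, and S100A11 with its copy on chromosome 7, was chosen after seeing the data and left the count at 2. The share of all genes past 2-fold was 9.89% with 1 added and 29.3% with no minimum. Past 1.5-fold the share was 31.8%, and past 4-fold it was 4.96%. At 4-fold the members' 2 of 10 lay above that share, which rests on S100A7 and S100P and was not tested. Over all genes, 1056 were higher and 984 lower past 2-fold, against 681 and 666 with 1 added, 3797 and 2191 with no minimum, 1177 and 853 after centering, and 552 and 671 with a minimum of 5 FPKM, where more were lower than higher; past 1.5-fold these were 2012 and 2319, and past 4-fold 436 and 239. No paired analysis was possible because the table holds 1 value per group, and settings without 1 sample were not run for the same reason.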

Other observations

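Rows without a symbol also lay among the S100 genes of chromosome 1 (hg19). Of 27 such rows, 22 reached 1 FPKM, with 10 at least 2-fold higher, 1 at least 2-fold lower and 11 within 2-fold, and a median log2 ratio of 0.48. Most of the higher ones reached 1 FPKM in siPAX9 alone, and the share over all rows without a symbol was not computed. The row from 153250908 to 153250991, only 84 bases long and in no GENCODE pseudogene, was at 507 FPKM in siNT and 54.8 FPKM in siPAX9. Between S100A12 and S100A8, the row from 153352295 to 153352621 was at 206 and 107 FPKM, and the row from 153353019 to 153353204 at 177 and 101 FPKM. Both lie in the pseudogene LAPTM4BP1, and their log2 ratios of -0.95 and -0.81 had the opposite sign to those of the S100 genes on either side. A row in the pseudogene HMGN3P1, from 152372003 to 152372369, was at 51.3 and 166 FPKM. These rows were picked for their level after the values were seen.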
